A study of Mus musculus with 14 samples.

Results

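The fibroblast growth factor (FGF) genes described here were 10 of the 21929 genes measured in the mouse proximal epididymis. They were chosen by name, whatever their values: the receptors *Fgfr1*, *Fgfr2*, *Fgfr3* and *Fgfr4*, the receptor-like *Fgfrl1*, the ligands *Fgf1*, *Fgf2*, *Fgf9* and *Fgf10*, and the receptor adaptor *Frs2*. RNA was hybridised to 14 single-colour Clariom S mouse arrays. They came from 7 mice if a replicate number within a genotype marks a single mouse, which the labels do not say. Each mouse had its efferent ducts ligated on one side (EDL), which stops sperm and testicular fluid from entering the epididymis, and a sham operation on the other. The mice were 8 weeks old, and tissue was collected 48 h after surgery. The groups were cKO EDL (3 arrays), cKO sham (3 arrays), Ctl EDL (4 arrays) and Ctl sham (4 arrays).

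The cKO mice carried a conditional deletion of *Arl13b*, a GTPase of the ciliary membrane, in basal cells that express *Krt5*, and Ctl mice were their controls. The deletion was directed at one cell type of a tissue that holds many, and the sources used here give neither the alleles nor the Cre line. *Arl13b* differed by 0.10 ± 0.14 log2 between cKO and Ctl in sham tissue and by -0.13 ± 0.14 in EDL tissue (SE, limma adjusted p = 0.999 and 0.900). These arrays therefore gave no check of the genotype labels, and whether its probe set lies within the deleted stretch is not known. Beside the tissue label, principal cell genes of the initial segment, the first stretch of the duct, were looked at. Their mean log2 value was 12.76 to 12.83 on the cKO sham arrays and 12.59 to 12.73 on the Ctl sham arrays. With no other tissue to compare, these levels do not test the label.

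Most FGFs are secreted proteins that bind receptor tyrosine kinases together with heparan sulphate. The activated receptor phosphorylates the adaptor Frs2, which starts the Ras and ERK cascade. ERK induces transcription factors of the Etv group and also its own brakes, the Sprouty and Spred proteins and the Dusp phosphatases. In the epididymis, FGFs that arrive in the fluid from the testis are among the factors thought to keep the initial segment differentiated.

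Values are log2 array values, as the authors deposited them, in which a difference of 1 is a doubling. A gene is said to have risen or fallen where limma's p, adjusted after Benjamini and Hochberg over all 21929 genes, was under 0.05. Each of the 10 genes had 1 probe set, so splice forms were not told apart, and values of different probe sets are not set against each other. In whole tissue, fewer cells of a type and less RNA per cell cannot be told apart. Olfactory and vomeronasal receptor genes (1463 genes) served as background, whose median was 3.69 and whose 95th percentile was 5.31. *Fgf10* was above that percentile on 11 of 14 arrays, and the other 9 genes were above it on all 14.

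After EDL the transcripts of 2 receptors were higher: *Fgfr2* rose in both genotypes and *Fgfr3* in cKO. The *Fgfr3* difference in Ctl passed only under some alternatives, among them those with the replicate number as a block. No ligand of the 10 genes, and not *Frs2*, passed the test within a genotype. On the same arrays, most of the listed genes that ERK induces, and most of the pathway's listed brakes, fell.

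*Fgfr2* and *Fgfr3* are the genes that passed, so the bases around their annotated starts are shown. They come from RefSeq on build GRCm38.p6 and run 5′ to 3′ on the gene's strand, from 250 bases before the start to 50 after it. Capitals mark GGGCGG, the core letters of a GC box, on either strand. *Fgfr2* lies on the minus strand of chromosome 7, at chr7:130266759-130267058. *Fgfr3* lies on the plus strand of chromosome 5, and its starts are at chr5:33721474-33721773 and chr5:33722056-33722355.

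Fgfr2 start: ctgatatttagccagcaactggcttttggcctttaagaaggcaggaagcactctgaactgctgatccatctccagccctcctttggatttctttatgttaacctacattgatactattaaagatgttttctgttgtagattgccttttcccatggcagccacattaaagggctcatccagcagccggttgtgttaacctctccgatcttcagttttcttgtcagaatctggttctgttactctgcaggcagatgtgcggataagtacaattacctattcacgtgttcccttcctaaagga

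Fgfr3 first start: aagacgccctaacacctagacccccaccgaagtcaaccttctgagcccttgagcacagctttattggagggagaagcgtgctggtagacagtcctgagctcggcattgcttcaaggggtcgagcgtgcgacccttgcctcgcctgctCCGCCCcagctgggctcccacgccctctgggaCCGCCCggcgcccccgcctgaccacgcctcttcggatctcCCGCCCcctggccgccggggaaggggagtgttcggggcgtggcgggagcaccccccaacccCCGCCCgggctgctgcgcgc

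Fgfr3 second start: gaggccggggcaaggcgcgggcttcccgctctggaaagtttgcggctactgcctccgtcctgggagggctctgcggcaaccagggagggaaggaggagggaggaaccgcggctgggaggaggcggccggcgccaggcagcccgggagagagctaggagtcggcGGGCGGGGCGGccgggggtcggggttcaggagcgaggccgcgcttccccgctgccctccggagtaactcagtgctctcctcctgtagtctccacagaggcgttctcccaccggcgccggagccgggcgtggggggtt

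The windows differed in base composition. The *Fgfr2* window was 43.7% G or C with 4 CpG dinucleotides, against a median of 52.7% and 7 CpG over 32851 mouse promoter windows of the same length. Those of *Fgfr3* were 69.7% and 73.0% G or C, with 26 and 30 CpG. GGGCGG occurred 4 times in the first *Fgfr3* window and 2 times, overlapping by a base, in the second, while 35.7% of all windows held it at least once. The *Fgfr2* window held neither GGGCGG nor TATAAA (13.6% of windows), GGAAGT (23.8%) or TGANTCA (7.81%), searched on both strands. Letters missing from this window say nothing about the factors that bind such letters.

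*Fgfr2* encodes a receptor whose epithelial form binds Fgf7 and Fgf10. It read 8.91, 8.70 and 8.95 on the cKO EDL arrays, against 8.42, 8.34 and 8.10 on the cKO sham arrays. In Ctl it read 8.77, 8.72, 8.87 and 8.91 on the EDL arrays, against 8.41, 8.58, 8.10 and 8.13 on the sham arrays. Every EDL array of either genotype lay above every sham array. *Fgfr2* rose 1.48-fold in cKO (log2 difference 0.57 ± 0.13 SE, with 3 arrays a group, interval of 95% confidence 0.29 to 0.84, limma adjusted p = 0.0127). It rose 1.43-fold in Ctl (0.51 ± 0.11, n = 4 and 4, 95% interval 0.27 to 0.75, limma adjusted p = 0.0108). With no overlap, all 7 EDL minus sham differences within a genotype and replicate number had to be positive. They ran from 0.14 to 0.85. In the authors' deposited table the *Fgfr2* p-values, once adjusted over all probe sets, were 0.0323 in cKO and 0.0288 in Ctl. A second deposited table of log2 values gave larger *Fgfr2* differences, 0.95 in cKO and 0.87 in Ctl. The cKO call was lost without cKO sham replicate 4 or without replicate 2 or 4 of cKO EDL (0.47 to 0.54, limma adjusted p from 0.0507 to 0.0554). It was also lost without both arrays of cKO replicate 2 (0.61, adjusted p = 0.0686) or 4 (0.43, adjusted p = 0.149). The Ctl call was lost without both arrays of Ctl replicate 4 or 5 (0.42 each, limma adjusted p = 0.0841 and 0.110).

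*Fgfr3* encodes a receptor whose activating mutations in humans cause dwarfism. It read 8.87, 9.17 and 9.02 on the cKO EDL arrays, against 8.33, 8.60 and 8.46 on the cKO sham arrays. In Ctl it read 9.13, 8.86, 9.06 and 8.98 on the EDL arrays, against 8.84, 8.73, 8.68 and 8.45 on the sham arrays. As for *Fgfr2*, each EDL array exceeded each sham array, but narrowly: the lowest EDL value was 8.86 and the highest sham value 8.84, both in Ctl. *Fgfr3* rose 1.47-fold in cKO (0.56 ± 0.12 SE, 95% interval 0.31 to 0.81 from 3 arrays a group, limma adjusted p = 0.0073). In Ctl the difference was 0.33 ± 0.10 (n = 4 and 4, 95% interval 0.12 to 0.55, limma adjusted p = 0.0583), which did not pass the threshold. With no overlap, its 7 same-numbered EDL and sham arrays had to differ in the same direction, and did so by 0.13 to 0.57. The Ctl difference passed with the replicate number as a fixed replicate block (adjusted p = 0.0358), with a filter on low values (0.0440), with a variance trend (0.0361) and without Ctl sham replicate 2 (0.39, 0.0498). The second table gave 1.07 in cKO and 0.65 in Ctl (limma adjusted p = 0.0043 and 0.0390). The cKO call was lost without both arrays of cKO replicate 4 (0.56, adjusted p = 0.0604). In the authors' deposited table the adjusted *Fgfr3* p-values were 0.0183 in cKO and 0.0856 in Ctl.

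**Figure D1:**
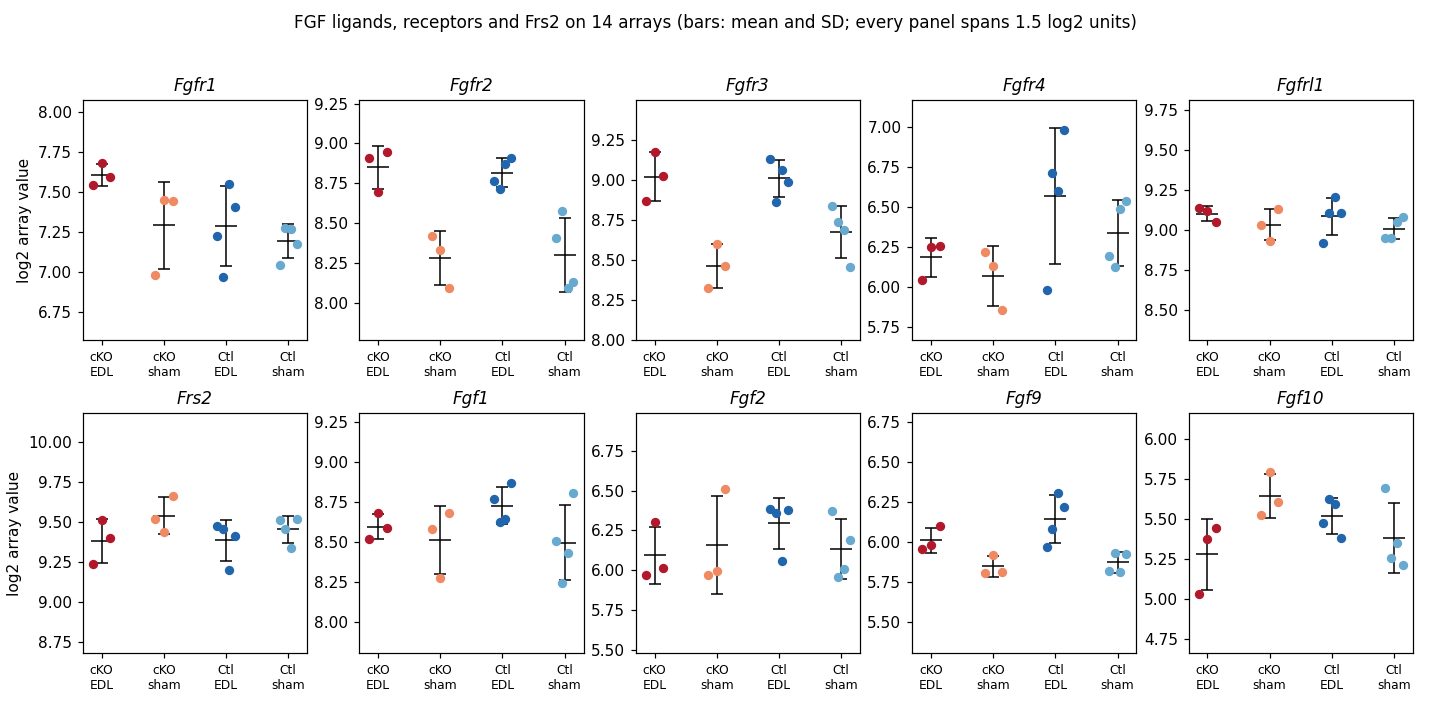
Log2 array values of each of the 10 genes, with 1 point per array in the groups cKO EDL, cKO sham, Ctl EDL and Ctl sham from left to right, and bars for the mean and SD. Every panel spans 1.5 log2 units. The EDL points of *Fgfr2* and *Fgfr3* lie above all their sham points, while those of *Fgfr4*, *Fgfrl1*, *Frs2*, *Fgf1* and *Fgf2* overlap.

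The other receptors did not pass the test in either genotype. *Fgfr1*, which is common in mesenchymal cells, read 7.55, 7.68 and 7.60 on the cKO EDL arrays, against 6.98, 7.45 and 7.45 on the cKO sham arrays. In Ctl it read 7.22, 6.97, 7.55 and 7.41 on the EDL arrays, against 7.05, 7.28, 7.27 and 7.18 on the sham arrays. The cKO groups did not overlap, and the Ctl groups did. The *Fgfr1* difference was 0.32 ± 0.15 in cKO (95% interval 0.00 to 0.63, limma adjusted p = 0.222) and 0.10 ± 0.13 in Ctl (adjusted p = 0.750).

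*Fgfr4*, a receptor best known for binding Fgf19 family hormones in the liver, had the widest spread among the receptors. It read 6.04, 6.25 and 6.26 in cKO EDL, against 6.21, 6.13 and 5.86 in cKO sham tissue. It read 5.98, 6.71, 6.60 and 6.98 in Ctl EDL, against 6.19, 6.12, 6.49 and 6.54 in Ctl sham tissue. Its differences were 0.12 ± 0.20 in cKO and 0.23 ± 0.17 in Ctl (limma adjusted p = 0.807 and 0.513). *Fgfrl1*, which lacks the kinase domain of the other receptors, was the steadiest receptor gene: its group SDs were 0.05 to 0.12, and all 14 arrays lay between 8.92 and 9.20. Its 95% intervals ran from -0.12 to 0.25 in cKO and from -0.08 to 0.24 in Ctl.

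Among the ligands, *Fgf9*, which signals between epithelium and mesenchyme, was the gene with separated groups in both genotypes. It read 5.96, 5.98 and 6.10 on the cKO EDL arrays, against 5.81, 5.92 and 5.82 on the cKO sham arrays. In Ctl it read 5.97, 6.08, 6.30 and 6.22 on the EDL arrays, against 5.82, 5.93, 5.81 and 5.93 on the sham arrays. All EDL values exceeded all sham values, at a level not far above background. The *Fgf9* difference was 0.16 ± 0.09 in cKO (95% interval -0.03 to 0.36, limma adjusted p = 0.324) and 0.27 ± 0.08 in Ctl (0.10 to 0.44, adjusted p = 0.0511). Neither passed, although the Ctl difference did with array weights (adjusted p = 0.0451), with a filter on low values (0.0345), with a random replicate block (0.0349) and without Ctl EDL replicate 2 (0.33, 0.0192). In the authors' deposited table the adjusted *Fgf9* p-values were 0.275 in cKO and 0.0475 in Ctl.

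*Fgf10*, a mesenchymal ligand of the epithelial form of Fgfr2, differed in the other direction in cKO. It read 5.03, 5.37 and 5.44 in cKO EDL, against 5.53, 5.79 and 5.61 in cKO sham tissue. It read 5.47, 5.62, 5.59 and 5.38 in Ctl EDL, against 5.69, 5.25, 5.35 and 5.21 in Ctl sham tissue. The cKO groups did not overlap, and the Ctl groups did. The *Fgf10* difference was -0.36 ± 0.14 in cKO (limma unadjusted p = 0.0186, adjusted p = 0.120) and 0.14 ± 0.12 in Ctl (adjusted p = 0.578). These values lay at the upper edge of the background range.

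*Fgf1*, which can bind all of the kinase receptors, read 8.52, 8.68 and 8.59 on the cKO EDL arrays, against 8.59, 8.28 and 8.68 on the cKO sham arrays. In Ctl it read 8.77, 8.63, 8.65 and 8.87 on the EDL arrays, against 8.50, 8.24, 8.43 and 8.81 on the sham arrays. The groups overlapped in both genotypes, with differences of 0.08 ± 0.14 in cKO and 0.23 ± 0.12 in Ctl (limma adjusted p = 0.793 and 0.292). *Fgf2*, a ligand held in the extracellular matrix, gave -0.06 ± 0.16 in cKO and 0.16 ± 0.13 in Ctl (adjusted p = 0.872 and 0.564). Its arrays spanned 5.97 to 6.30 in cKO EDL, 5.97 to 6.51 in cKO sham, 6.06 to 6.38 in Ctl EDL and 5.96 to 6.37 in Ctl sham tissue.

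*Frs2*, the adaptor that couples the receptors to Ras, spanned 9.24 to 9.51 in cKO EDL and 9.44 to 9.67 in cKO sham tissue. In Ctl it spanned 9.20 to 9.48 in EDL and 9.34 to 9.52 in sham tissue. The groups overlapped, and the *Frs2* difference was -0.16 ± 0.10 in cKO and -0.07 ± 0.09 in Ctl (limma adjusted p = 0.411 and 0.737).

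In cKO, then, 2 of the 10 genes rose and none fell, where 9.79% of all genes changed, 5.04% rising and 4.74% falling. In Ctl, 1 of the 10 rose and none fell, where 7.88% of all genes changed, 3.32% rising and 4.57% falling. An unadjusted p under 0.05 was reached by 4 of the 10 in cKO (22.4% of all genes) and by 3 in Ctl (20.3%). Over all genes, 1106 rose and 1040 fell in cKO, while centring the arrays on their medians gave 785 and 1452. Under that centring *Fgfr2* and *Fgfr3* still rose in cKO (0.50 and 0.49). EDL arrays lay above sham arrays without overlap for 4 of the 10 genes in cKO (*Fgfr1*, *Fgfr2*, *Fgfr3* and *Fgf9*), against 13.4% of all genes. They did so for 3 in Ctl (*Fgfr2*, *Fgfr3* and *Fgf9*), against 6.69% of all genes. In cKO, EDL lay below sham for 1 of the 10 (*Fgf10*), against 12.4% of all genes. The median difference was 0.10 in cKO and 0.20 in Ctl, and 0.01 over all genes in each. The genes were few and were picked with earlier results of these data known, so nothing particular to the list is read from these counts.

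The average of the cKO and Ctl differences, a comparison chosen after the data were seen, used all 14 arrays. By it 3 of the 10 genes rose and none fell, where 18.2% of all genes changed and 9.58% rose. *Fgfr2* rose 1.45-fold (0.54 ± 0.09, limma adjusted p = 0.0005) and *Fgfr3* 1.36-fold (0.45 ± 0.08, adjusted p = 0.0009). Those 2 calls held whichever single array, or both arrays of a replicate number, were left out, with differences of 0.47 to 0.60 for *Fgfr2* and 0.41 to 0.48 for *Fgfr3*. For these 3 genes all EDL arrays lay above all sham arrays, against 3.19% of all genes. *Fgf9* rose 1.16-fold (0.22 ± 0.06, adjusted p = 0.0214). The *Fgf9* call was lost without replicate 2 of cKO sham (0.21, adjusted p = 0.0536) or replicate 4 of cKO EDL (0.20, adjusted p = 0.0594), and with arrays centred on their medians (0.16, adjusted p = 0.0601). It was also lost without both arrays of replicate 2 or 4 of cKO (adjusted p = 0.0659 and 0.109) or of replicate 4 or 5 of Ctl (0.0714 and 0.0533). With that centring 1532 genes rose and 2729 fell, against 2100 and 1885 without it.

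**Figure D2:**
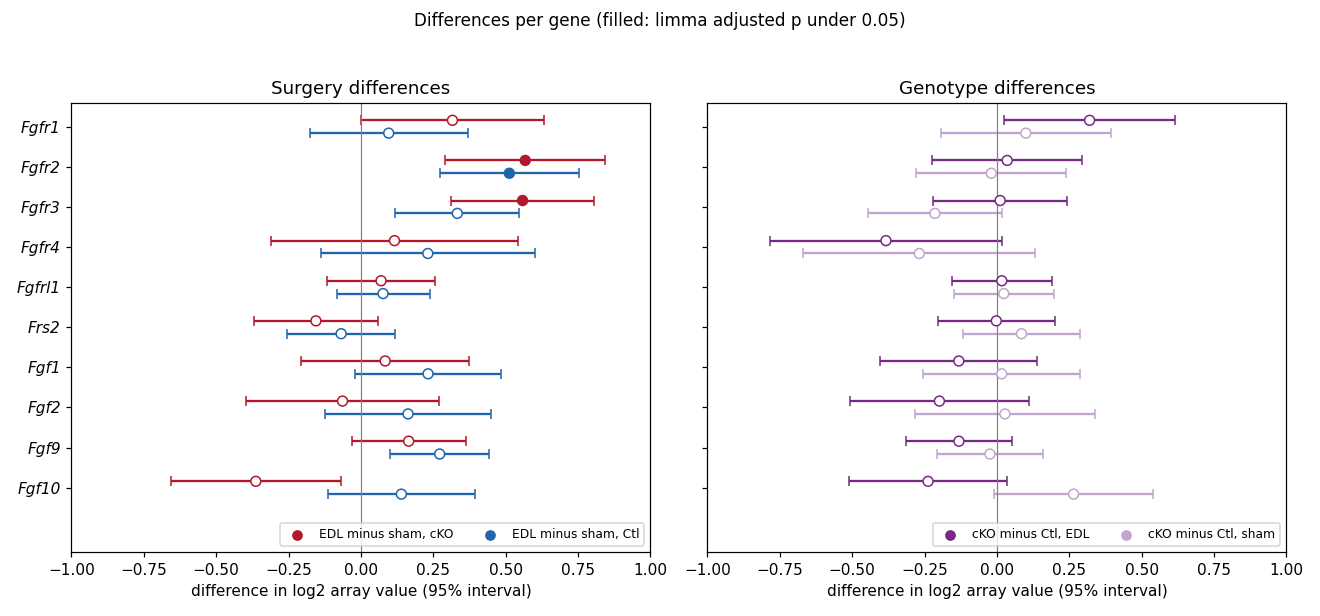
Differences in log2 array value for the 10 genes, EDL minus sham at the left and cKO minus Ctl at the right. Points are the limma estimates, bars their 95% intervals, and filled points have an adjusted p under 0.05. Filled points are *Fgfr2* in both genotypes and *Fgfr3* in cKO, and no genotype difference is filled.

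Genotype was compared within each surgery. None of the 10 genes differed between cKO and Ctl in sham or in EDL tissue, and by limma 0% of all genes did (3.65% in sham and 6.08% in EDL tissue had an unadjusted p under 0.05). None of the 10 reached an unadjusted p under 0.05 in sham tissue. In the authors' deposited table the lowest adjusted p of the 10 genes was 0.843, for *Fgfr1* in EDL tissue. By limma only *Fgfr1* had an unadjusted p under 0.05 in EDL tissue, with cKO 0.32 ± 0.14 above Ctl (unadjusted p = 0.0353, limma adjusted p = 0.797). *Fgfr2* differed between cKO and Ctl by -0.02 ± 0.12 in sham tissue (95% interval -0.28 to 0.24) and by 0.04 ± 0.12 in EDL tissue (-0.22 to 0.29). *Fgfr3* differed by -0.21 ± 0.11 in sham tissue (-0.45 to 0.02, adjusted p = 0.999) and by 0.01 ± 0.11 in EDL tissue (-0.22 to 0.24, adjusted p = 0.995). *Fgfr4* was 0.38 ± 0.19 lower in cKO EDL than in Ctl EDL tissue by its mean, again short of the threshold (adjusted p = 0.821).

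Whether EDL acted differently in the genotypes was tested by the interaction, cKO response minus Ctl response. No gene of the 10 passed, and by limma 0% of all genes did (4.1% had an unadjusted p under 0.05). *Fgfr3*, whose rise was called in cKO but not in Ctl, had an interaction of 0.23 ± 0.15 (95% interval -0.10 to 0.55, limma adjusted p = 0.985). The interaction of *Fgfr2* was 0.05 ± 0.17 (-0.31 to 0.42, adjusted p = 0.992). *Fgf10* alone had an unadjusted p under 0.05 (-0.50 ± 0.18, unadjusted p = 0.0146, adjusted p = 0.985).

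The pathway around these genes was described with lists chosen by role. Beside the counts of each list below, 5.04% of all genes rose and 4.74% fell in cKO. In Ctl 3.32% of all genes rose and 4.57% fell. Of 18 other *Fgf* genes, not all of which encode secreted ligands, 1 passed the test in each genotype. For 11 of the 18 the mean over all arrays exceeded the background percentile. The gene that passed was *Fgf7*, a mesenchymal growth factor for epithelia that also binds the epithelial form of Fgfr2. It read 5.11, 5.19 and 5.26 on the cKO EDL arrays, against 4.42, 4.62 and 4.70 on the cKO sham arrays. In Ctl it read 5.15, 5.46, 5.50 and 4.98 on the EDL arrays, against 4.46, 4.65, 4.72 and 4.91 on the sham arrays. *Fgf7* groups were separate in both genotypes, but only 2 of 14 arrays, both Ctl EDL, exceeded the background percentile, so no fold or difference is given. The limma adjusted p of *Fgf7* was 0.0138 in cKO and 0.0075 in Ctl. The cKO call was lost without replicate 2 of cKO sham or replicate 4 of cKO EDL (adjusted p from 0.0541 to 0.0741).

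Heparan sulphate proteoglycans and other cofactors present FGFs to their receptors. Of 28 measured members, 7 rose and 2 fell in cKO, and 3 rose and 3 fell in Ctl. The glypican *Gpc6* fell in both, by -1.34 ± 0.16 in cKO and -1.09 ± 0.14 in Ctl, as did the syndecan *Sdc1*, by -0.42 ± 0.07 and -0.49 ± 0.06. The syndecan *Sdc3* rose by 0.42 ± 0.09 in cKO and 0.50 ± 0.08 in Ctl. The 7 rises in cKO became 2 without replicate 2 of cKO sham, 4 without replicate 2 of cKO EDL and 3 without replicate 4 of cKO EDL. The 3 rises in Ctl became 1 without replicate 5 of Ctl sham or replicate 4 of Ctl EDL. *Sulf2*, which removes sulphate groups from heparan sulphate outside the cell, rose in cKO (0.98 ± 0.20, limma adjusted p = 0.0060) and gave 0.47 ± 0.17 in Ctl (adjusted p = 0.119). The FGF coreceptor *Klb* did not pass in either genotype and exceeded the background percentile on 3 of 14 arrays, so no difference is given.

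Of 23 adaptor and cascade genes, 2 rose and 3 fell in cKO, and none rose and 2 fell in Ctl, where 9.79% and 7.88% of all genes changed. The 2 rises in cKO became 1 without any one of the 3 cKO sham arrays or of replicates 3 and 4 of cKO EDL. The 0 rises in Ctl became 1 without replicate 3 or 4 of Ctl EDL or replicate 3 of cKO EDL. *Plcg1*, a phospholipase that binds activated receptors, fell by -0.97 ± 0.08 in cKO and -1.09 ± 0.07 in Ctl. *Shc1*, an adaptor shared by many receptor kinases, fell by -0.40 ± 0.06 in cKO and -0.33 ± 0.06 in Ctl. The docking protein *Gab2* rose in cKO (0.51 ± 0.10, limma adjusted p = 0.0036) and gave 0.26 ± 0.08 in Ctl (adjusted p = 0.0782). The list's median difference was 0.01 in cKO and -0.01 in Ctl, close to the 0.01 of all genes.

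The brakes of the pathway moved mostly downwards. Of 16 such genes, 9 fell and 1 rose in each genotype, with list medians of -0.56 in cKO and -0.51 in Ctl. In cKO, 2 rose without replicate 2 of cKO sham. *Dusp6*, a phosphatase of ERK, fell to 8.28 in cKO EDL, against 10.75 in cKO sham tissue, and to 8.42 in Ctl EDL, against 10.78 in Ctl sham tissue (group means of log2 values). The *Dusp6* differences were -2.47 ± 0.15 in cKO and -2.36 ± 0.13 in Ctl. *Dusp5* fell by -2.18 and -1.95, and *Dusp4* by -1.41 and -1.62, in cKO and in Ctl. Among the Sprouty genes *Spry1* fell by -1.11 in both, *Spry4* by -0.75 in cKO and -0.58 in Ctl, and *Spry2* by -0.51 and -0.45. The Sprouty-related *Spred2* fell by -0.86 in cKO and -0.98 in Ctl. The Ras regulator *Rasa3* was the 1 that rose, by 0.62 ± 0.13 in cKO and 0.55 ± 0.11 in Ctl. *Il17rd*, a membrane brake on FGF receptors, did not pass in either genotype and exceeded the background percentile on 7 of 14 arrays.

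Of 12 genes that ERK induces, 8 fell in each genotype, 1 rose in cKO and none rose in Ctl (1 without replicate 3 of Ctl sham). The list medians were -0.80 in cKO and -0.89 in Ctl. *Etv5* had a mean of 7.61 in cKO EDL, against 12.14 in cKO sham tissue, and of 7.42 in Ctl EDL, against 12.03 in Ctl sham tissue. It fell by -4.53 ± 0.11 in cKO and -4.61 ± 0.10 in Ctl. *Etv1* fell by -2.71 ± 0.13 in cKO and -2.63 ± 0.11 in Ctl, and *Etv4* by -2.56 ± 0.30 and -2.90 ± 0.26. *Phlda1* fell by -1.86 ± 0.17 in cKO and -1.59 ± 0.15 in Ctl, and the immediate early gene *Egr1* by -0.99 ± 0.13 and -1.31 ± 0.12. *Myc*, a driver of cell growth, went the other way: it rose in cKO (0.98 ± 0.22, limma adjusted p = 0.0127) and gave 0.51 ± 0.19 in Ctl (adjusted p = 0.137). The *Myc* call did not hold without replicate 2 of cKO sham or without replicate 4 of cKO EDL (0.84 to 0.92, adjusted p from 0.0575 to 0.0596). In the second deposited table the differences of pathway genes were larger too, by over 1.5 times for 34 of the 40 called in cKO and 30 of the 33 called in Ctl. There *Etv4* gave -5.67 in cKO and -5.48 in Ctl, *Etv1* -4.39 and -4.19, *Etv5* -7.00 and -7.08, and *Dusp6* -4.12 and -4.05. *Fgfr2* was thus higher after EDL on the same arrays on which *Etv5*, *Dusp6* and *Spry1* were lower, and no link between them was tested.

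**Figure D3:**
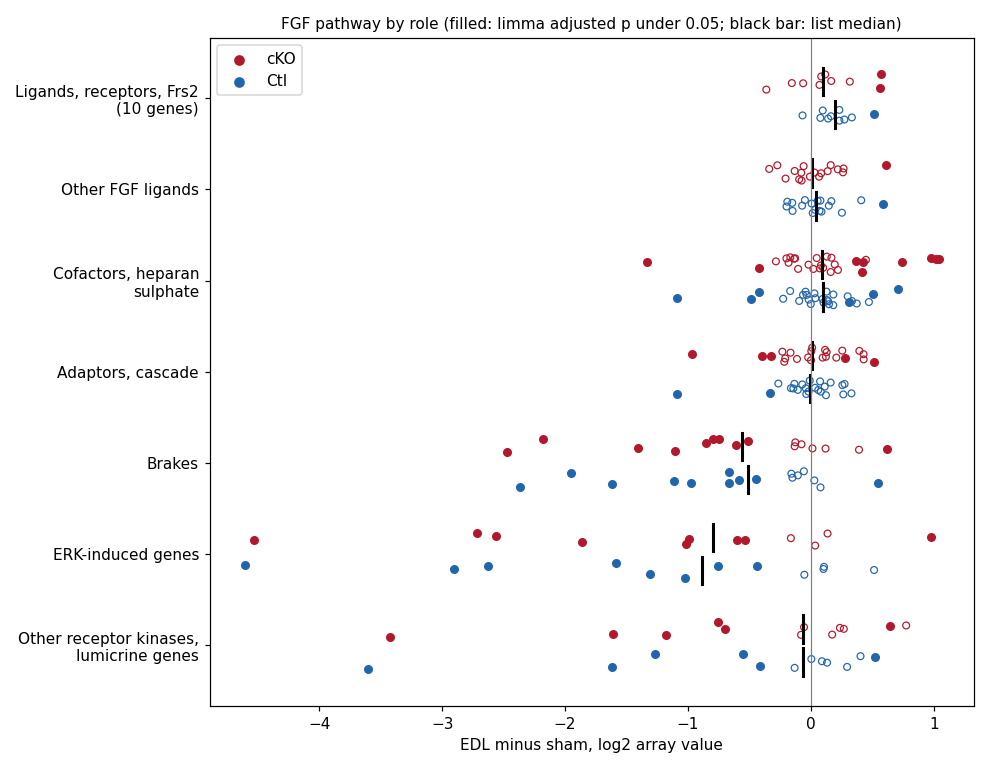
EDL minus sham difference in log2 array value (horizontal axis) for the 10 genes and 6 lists by role, with 1 point per gene, cKO above Ctl in each list. Filled points have a limma adjusted p under 0.05 and black bars are list medians. The brakes and the ERK-induced genes lie mostly to the left of 0, with medians of -0.56 and -0.80 in cKO and -0.51 and -0.89 in Ctl.

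The FGF receptors were not alone among receptor kinases in changing after EDL. Of 12 measured genes of other receptor kinases and of testis-to-epididymis signalling, 1 rose and 5 fell in each genotype. The 5 were the receptor kinases *Igf1r*, *Met* and *Ros1*, and also *Adam28* and *Ovch2*, which are not receptor kinases. The number that rose was 2 in cKO without replicate 3 or 4 of cKO sham, and 2 in Ctl without replicate 3 of Ctl sham or replicate 2 of Ctl EDL. *Igf1r*, the receptor of insulin-like growth factor 1, fell by -1.18 ± 0.10 in cKO and -1.27 ± 0.09 in Ctl. The receptor kinase *Met* fell by -0.76 ± 0.11 in cKO and -0.55 ± 0.09 in Ctl. *Ros1*, a receptor kinase that the mouse initial segment needs to develop, fell by -0.70 ± 0.13 in cKO and -0.42 ± 0.11 in Ctl. The Ctl call of *Ros1* was lost without any one of replicates 2, 4 and 5 of Ctl sham or 3, 4 and 5 of Ctl EDL (adjusted p up to 0.102). *Egfr*, the receptor of epidermal growth factor, rose in cKO (0.64 ± 0.11, limma adjusted p = 0.0015) and gave 0.29 ± 0.09 in Ctl (adjusted p = 0.0688). *Kit*, the receptor of stem cell factor, rose in Ctl (0.52 ± 0.09, adjusted p = 0.0017) and gave 0.27 ± 0.10 in cKO (adjusted p = 0.124). The difference between genotypes in these responses passed for no gene of any list, as for all genes.

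**Figure D4:**
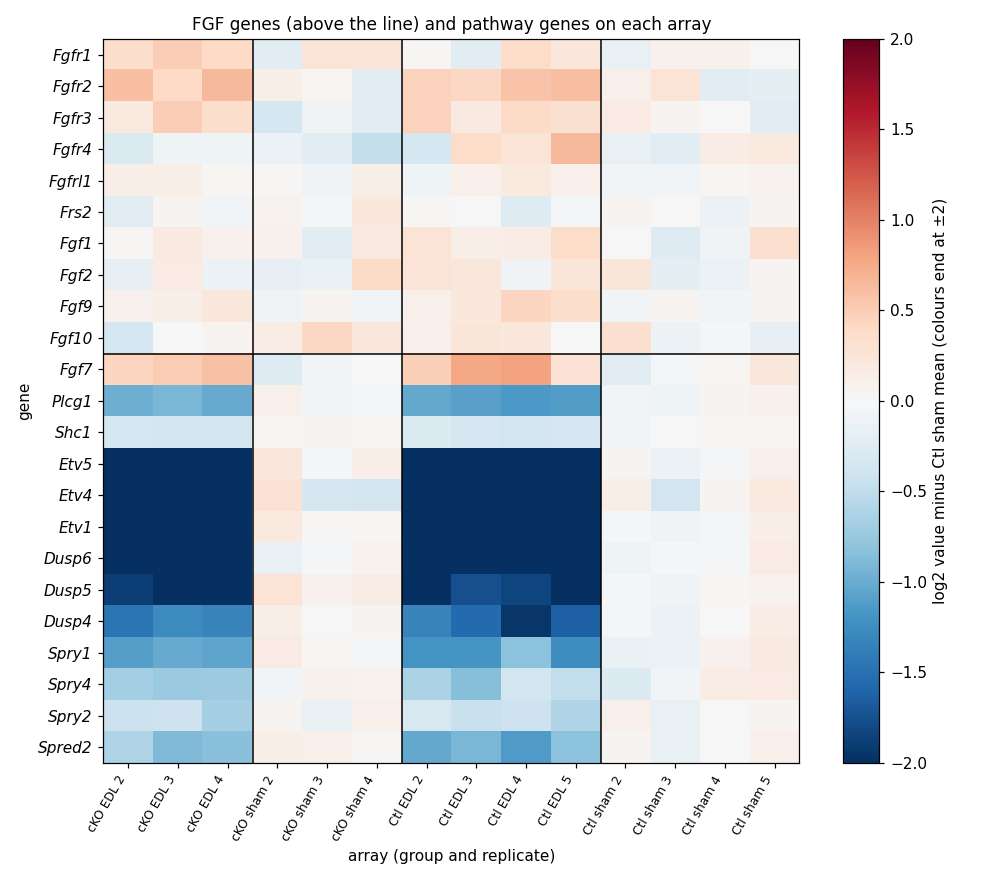
Log2 value minus the Ctl sham mean for the 10 genes (above the line) and for selected pathway genes on each of the 14 arrays, with colours that end at 2 units to either side. Columns run cKO EDL, cKO sham, Ctl EDL and Ctl sham. *Fgfr2* is warm and *Etv5* dark blue on all 7 EDL arrays.

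The genes with a profile nearest to that of *Fgfr2* over the 14 arrays were *Pde1a*, *Tspan12* and *Gadd45g*. Nearness was the root mean square difference of values centred on each gene's own mean: 0.0969 to 0.102 log2, against 0.303 for the *Fgfr2* profile itself. All 3 rose in both genotypes, *Pde1a* by 0.70 ± 0.12 in cKO and 0.52 ± 0.10 in Ctl. Genes nearest to a profile were picked on these same arrays. Their differences after EDL, here and below, therefore follow from the choice and are no separate result. The genes nearest to *Fgfr3* were *Rab3il1*, *Dach1* and *Galnt7*, at 0.0891, 0.102 and 0.112, against 0.257 for *Fgfr3* itself. *Rab3il1* rose by 0.45 ± 0.11 in cKO and 0.38 ± 0.09 in Ctl, and *Dach1* by 0.61 ± 0.09 and 0.29 ± 0.08. *Galnt7* gave 0.39 ± 0.12 and 0.33 ± 0.10, which did not pass (limma adjusted p = 0.0508 in cKO and 0.0619 in Ctl).

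Marker genes of several cell types also changed after EDL on the same arrays. Over all genes, 5.04% rose and 4.74% fell in cKO, and 3.32% rose and 4.57% fell in Ctl. Of 12 initial segment markers 10 fell in each genotype, and their mean log2 value was 9.33 to 9.53 in cKO EDL, 12.76 to 12.83 in cKO sham, 9.21 to 9.39 in Ctl EDL and 12.59 to 12.73 in Ctl sham tissue. Among those that fell, *Etv5*, *Ros1*, *Adam28* and *Ovch2* were also counted in the lists by role above. All of 11 macrophage markers rose in cKO and 9 in Ctl, with means of 8.90 to 9.04 in cKO EDL, 6.98 to 7.92 in cKO sham, 8.54 to 9.21 in Ctl EDL and 7.31 to 8.11 in Ctl sham tissue. Of 13 fibroblast markers 8 rose and 1 fell in cKO, and 1 rose and 1 fell in Ctl. Their means were 9.21 to 9.53 in cKO EDL, 7.77 to 8.83 in cKO sham, 8.82 to 9.29 in Ctl EDL and 8.22 to 9.02 in Ctl sham tissue. The 8 fibroblast rises in cKO became 0 without replicate 2 of cKO sham, and 3, 4 and 5 without replicates 2, 3 and 4 of cKO EDL. The 1 in Ctl became 0 to 5 with single arrays left out, the 5 without replicate 2 of cKO sham. A lost call is not an absence of change: without cKO sham replicate 2 the fibroblast marker *Col5a1* still gave 1.02 in cKO (limma adjusted p = 0.0590). Without that array *Fgfr2* and *Fgfr3* still rose in cKO (0.64 and 0.49, limma adjusted p = 0.0222 and 0.0436). The *Fgfr2* call in cKO was lost without cKO sham replicate 4 or without replicate 2 or 4 of cKO EDL.

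Of 9 basal cell markers 5 rose in cKO, and 2 rose and 1 fell in Ctl, with means of 8.84 to 8.95 in cKO EDL, 8.34 to 8.60 in cKO sham, 8.69 to 8.81 in Ctl EDL and 8.45 to 8.61 in Ctl sham tissue. The 2 rises in Ctl became 1 without replicate 2 or 5 of Ctl sham or replicate 2 or 4 of Ctl EDL, and the 1 fall was lost without any one of 8 arrays. *Krt5* rose by 0.89 ± 0.11 in cKO and 0.44 ± 0.09 in Ctl. Of 9 endothelial markers 5 rose in cKO and none in Ctl, and of 9 smooth muscle markers 3 rose and 1 fell in cKO, and none rose and 1 fell in Ctl. The 5 endothelial rises became 2 without replicate 2 of cKO sham and 3 without replicate 2 of cKO EDL, and the 0 in Ctl became 2 or 3 without replicate 2 or 4 of cKO sham or replicate 2 of Ctl EDL. The 3 smooth muscle rises became 0 to 6 with single arrays left out, and were 0 without replicate 2 or 3 of cKO sham or replicate 2 or 4 of cKO EDL. Of 10 sperm and spermatid markers 5 fell in cKO and 9 in Ctl, and none rose. Of 8 caput principal cell markers 1 rose and 3 fell in each genotype. Of 7 clear and narrow cell markers none changed in cKO and 1 rose in Ctl. Of 7 proliferation markers 1 rose in cKO and none in Ctl. The caput rise was lost without any one of 3 arrays in cKO and 12 in Ctl, and the proliferation rise without any one of 5. The part of these cell types in the *Fgfr2* and *Fgfr3* values was not tested.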

How the data were processed

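RNA (100 ng) of the proximal epididymis was measured on 14 arrays, grouped by genotype and surgery from the labels. The authors deposited log2 values of 22206 probe sets, between 2.33 and 13.91 with array medians of 6.96 to 7.06. RMA, Affymetrix Expression Console and Partek 7.0 are named in the submitters' processing notes, with no role given. The authors' table of comparisons held a p-value and a ratio per probe set; its p-values were adjusted here, and its deposited ratios matched the log2 table within 0.001 log2 for 100% of them. Its 14 columns of array values were not used, since their identifiers differed from the line's in 5825 of 22206 lines. A second deposited log2 table (28846 lines), whose normalization no label or header states, was an alternative.

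Symbols were those deposited, with 20456 matched to RefSeq (902 updated). The probe set with the highest mean stood for each of 21929 genes, with no filter. One limma model held the 4 group means (10 residual and 4.16 prior degrees of freedom), without a block, two-sided. Named were the 10 genes, at most 4 genes of a list with the smallest p in each direction, and a set chosen by role whatever its p. The 3 nearest profiles were named for genes past the threshold within a genotype, predicted genes left out. Alternatives covered scaling, variance model, array weights, filter, probe set choice, threshold, replicate block and arrays left out. With a single scan date there was no scan batch to compare, and other batches, which the labels do not give, could not be checked. Precision is limited by how many arrays there were. The labels do not say that a replicate number marks one mouse, and p-values measure the spread between these arrays. On simulated data, 90.0% of 2-fold changes were recovered for the cKO comparison and 96.0% for Ctl (200 changed of 21929 genes), with 0 wrong signs. The differences of the 10 genes after EDL were smaller, at most 1.48-fold within a genotype. How often differences of that size would be called was not simulated. The genes, lists and tests were chosen with earlier results of these data known. R 4.3.3, limma 3.58.1, Python 3.11.15, pandas 2.3.3, numpy 2.4.6 and matplotlib 3.10.9 were used.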

Additional observations from a re-analysis of the deposited data

Results flagged for a closer look

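*Fgf2* in Ctl EDL tissue had 1 array apart from the other 3: replicate 4 read 6.06, against 6.36 to 6.38 on the others. The gap was 0.920 of the group's range, over Dixon's critical ratio of 0.829 for 4 samples. Among 20 groups tested, about 1 flag arises by chance.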

How the results depend on the processing

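Over the 10 genes and 6 comparisons, no result past the threshold changed sign under any alternative run, 2088 values kept their side of the threshold, 12 gained a call and 20 lost one. Of the 10 genes, 1 rose in Ctl. That number became 2 with the second table, a variance trend, array weights or the replicate number as a fixed replicate block, and 3 with it as a random replicate block or a filter on low values. At thresholds of 0.01 and 0.10 it was 0 and 3, and leaving out arrays gave 0 to 2. The 2 genes that rose in cKO became 1 at the threshold of 0.01, and 0 to 2 with arrays left out. With the fixed replicate block the adjusted p of *Fgfr2* was 0.0456 in cKO and 0.0438 in Ctl, and that of *Fgfr3* 0.0075 and 0.0358. With the random block it was 0.0093 and 0.0078 for *Fgfr2*, and 0.0039 and 0.0359 for *Fgfr3*. The main fit had no block because no statistical method of the authors states one. It thus treated all arrays as independent, although each mouse had both operations. The consensus correlation between arrays of the same genotype and number was 0.109, and 4 of 7 pairs of arrays correlated best with their own number. These values do not settle whether the numbers mark pairs. The averaged *Fgf9* rise was not called with a further quantile normalization (0.19, adjusted p = 0.0526), a variance trend (0.22, 0.0588) or a threshold of 0.01.

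Over all genes, the 2146 calls in cKO became 1375 with only the arrays compared, 1063 without replicate 2 of cKO sham and 1305 without replicate 2 of cKO EDL. They became 712 without both arrays of cKO replicate 2 and 1075 without those of replicate 4. The 1729 calls in Ctl became 1071 and 788 without both arrays of Ctl replicate 4 or 5. The 0 genotype calls in sham tissue became 4 without Ctl EDL replicate 4. The alternatives for the pathway and marker lists were chosen once the data had been seen. The causes were not tested.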
